A study of Mus musculus with 12 samples.

Results

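Cyclic AMP (cAMP) and cyclic GMP (cGMP) are made by cyclases and broken down by phosphodiesterases (PDE), and cAMP-dependent protein kinase (PKA) reads the cAMP level. The genes examined here are those in the count tables of the mouse dorsal raphe (DR) whose symbol is Adcy or Pde followed by a digit, or starts with Gucy, Prkac or Prkar, with at least 30 counts summed over the 12 libraries. Of 24421 gene symbols listed, 51 fit the symbols and 48 reached this minimum. The other 3, Adcy10, Pde6c and Pde6h, were below it. The 48 genes were 9 adenylyl cyclases, 4 subunits of soluble guanylyl cyclase, 5 receptor guanylyl cyclases, 22 genes named for the PDE families 1 to 11, of which Pde6d is a chaperone, 2 catalytic and 4 regulatory subunits of PKA, and 2 other genes with a Pde symbol, Pde4dip and Pde12.

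RNA was read from the DR of 4 control mice and 8 STAT3 KO mice, with 1 library per animal. STAT3 KO mice were Sert Cre/+; Stat3 fl/fl, in which the exons that encode the SH2 domain are deleted in cells that express the serotonin transporter (SERT), and controls were littermate Sert Cre/+; Stat3 fl/+ mice, so that controls also carried the Cre allele and 1 floxed allele. All were of mixed C57BL/6 x 129 background and 8 to 16 weeks old at the onset of experiments, with 2 females and 2 males among controls and 4 of each sex among STAT3 KO mice. The libraries were made from tissue cut out just below the aqueduct and hold the RNA of all its cells, so fewer cells of a type and less RNA per cell cannot be told apart.

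Each library held 24379588 to 29645210 counts on genes, and 3 counts, the lowest level taken as measurable, equal 0.101 to 0.123 CPM (counts scaled to library size) by counting error alone. The serotonergic markers Tph2 and Slc6a4 were read at 540 to 879 CPM and 151 to 405 CPM over the 12 animals. Stat3 itself was at 66.6 ± 1.49 CPM (SD, n = 4) in controls, against 66.3 ± 2.72 CPM (n = 8) in the STAT3 KO group, which gave a log2 fold change of -0.0077 with a 95% interval of -0.091 to 0.076. Counts per gene include the exons that are not deleted and the cells without Cre. Some libraries stood apart in markers of other brain areas. Control 4 had the highest sum of forebrain excitatory markers (448 CPM, 43.2 to 131 in all others), STAT3 KO 16 and STAT3 KO 10 had the highest sums of cerebellar markers (661 and 360 CPM, 79.1 to 177 in all others), and STAT3 KO 8 and STAT3 KO 16 had the highest sums of choroid plexus markers (243 and 238 CPM, 17.8 to 24.7 in all others).

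Adenylyl cyclases turn ATP into cAMP at the plasma membrane when receptors act through the stimulatory G protein, and the inhibitory G protein holds them down. In serotonergic neurons the 5-HT1A autoreceptor couples to the inhibitory kind. cGMP has separate makers, namely the soluble guanylyl cyclase that senses nitric oxide and the receptor guanylyl cyclases that bind peptides or calcium-sensing activator proteins. PDEs set how long and how far each signal travels, and PKA stays inactive until cAMP releases its catalytic from its regulatory subunits.

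The promoters of these genes were searched because STAT3 and the cAMP-response element-binding protein CREB are both transcription factors. RefSeq start sites on GRCm38.p6 gave 79 windows for 39 of the 48 genes, each with 250 bases before and 50 bases after the start. The motif TTCNNNGAA, the common core of STAT sites, was in 10 of the 79 windows (12.7%) and in 8.30% of all 32851 windows of this length. It was found at Adcy3, Adcy7, Pde11a, Pde1b, Pde1c, Pde4b, Pde4dip and Pde8b. Its tighter form TTCCNGGAA, which is contained in it, was in 2 windows, at Pde11a and Pde1c, and in 1.15% of all windows. The full cAMP-response element (CRE) TGACGTCA was in 2 windows, both of Prkar1a, and in 1.79% of all windows. The shorter TGACG, searched on both strands like the others and part of the full element, was in 18 of the 79 windows (22.8%) and in 20.8% of all windows.

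The sequences shown are the upstream bases of Adcy9, the gene whose genotypes did not overlap, those of Pde11a and Pde1c, with the tighter STAT-type motif, and a short stretch of Prkar1a around its CRE. Each is given 5′ to 3′ on the strand of its gene, with the motif in capitals. They lie at chr16:4420499-4420748 (Adcy9, minus strand), chr2:76338939-76339188 (Pde11a, minus strand), chr6:56369635-56369884 (Pde1c, minus strand) and chr11:109650889-109650918 (Prkar1a, plus strand).
Adcy9: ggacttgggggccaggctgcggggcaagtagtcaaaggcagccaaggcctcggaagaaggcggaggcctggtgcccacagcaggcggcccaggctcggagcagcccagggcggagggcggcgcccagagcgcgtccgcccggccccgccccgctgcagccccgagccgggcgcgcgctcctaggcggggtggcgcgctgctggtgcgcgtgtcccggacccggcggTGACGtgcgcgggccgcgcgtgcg
Pde11a: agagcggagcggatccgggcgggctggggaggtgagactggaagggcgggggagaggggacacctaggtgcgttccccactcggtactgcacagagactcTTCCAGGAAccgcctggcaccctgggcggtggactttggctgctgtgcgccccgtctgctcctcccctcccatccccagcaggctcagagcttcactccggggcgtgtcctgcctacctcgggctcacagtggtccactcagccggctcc
Pde1c: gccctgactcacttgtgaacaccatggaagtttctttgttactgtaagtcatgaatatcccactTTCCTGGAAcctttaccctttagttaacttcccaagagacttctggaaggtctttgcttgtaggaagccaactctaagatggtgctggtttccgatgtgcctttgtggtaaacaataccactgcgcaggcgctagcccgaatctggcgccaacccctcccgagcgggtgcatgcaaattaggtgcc
Prkar1a: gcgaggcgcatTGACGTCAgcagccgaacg
The TGACG of Adcy9 begins 24 bases before the start (-24), the STAT-type motif of Pde11a at -150, that of Pde1c at -186 and the CRE of Prkar1a at -49. Adcy9 held no TTCNNNGAA in its only window. A match of letters says nothing about binding of either factor in these mice.

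Levels are given per length, as RPKM (CPM divided by the length of the exons in kilobases), where genes are compared with each other. PKA subunits were the most abundant. Prkar1a and Prkar1b, the type I regulatory subunits, stood at 249 ± 6.46 RPKM and 218 ± 7.35 RPKM (SD, n = 12), and the type II subunits Prkar2b and Prkar2a at 20.1 ± 1.07 and 13.9 ± 0.688 RPKM. Type I subunits thus held 92.8% to 93.5% of the regulatory RPKM in every animal. The catalytic subunits Prkaca and Prkacb were at 116 ± 7.48 and 79.3 ± 4.15 RPKM, and the sum of regulatory subunits was 2.5 to 2.76 times that of catalytic subunits. Prkar1a was the steadiest of all, with an SD of 2.59% of its mean over the 12 animals.

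Among the adenylyl cyclases, Adcy2, which G protein βγ subunits stimulate, had the highest level, at 28.6 ± 2.73 RPKM (23.7 to 32.8 over 12 animals). Adcy5, which calcium inhibits, followed at 18.6 ± 1.20 RPKM, and it was below Adcy2 in 12 of 12 animals. Adcy9, Adcy3 and Adcy1 came next at 13.7, 13.4 and 12.9 RPKM, and their ranges overlapped. Adcy9, with poor sensitivity to forskolin, was above Adcy3 in 7 of 12 animals, so the order of these neighbours was not settled beyond their spread. Adcy6, Adcy7 and Adcy8 also overlapped with each other, at 7.55, 6.58 and 6.02 RPKM. Adcy4 was the lowest at 1.27 ± 0.169 RPKM. All 9 membrane cyclases listed as Adcy1 to Adcy9 were thus measurable in every animal.

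In soluble guanylyl cyclase, 1 α and 1 β subunit form the enzyme, and the β1 subunit is required in both common forms. This subunit, listed as Gucy1b3 (now Gucy1b1), was at 36.7 ± 2.79 RPKM. The α subunits Gucy1a3 (now Gucy1a1) and Gucy1a2 were at 17.2 ± 1.34 and 17.1 ± 1.97 RPKM and did not differ beyond their spread, with Gucy1a3 above Gucy1a2 in 7 of 12 animals. The level of Gucy1b3 was 0.936 to 1.19 times the summed level of both α subunits, with all exons as the length. The longest transcripts of Gucy1a2, Gucy1a3 and Gucy1b3 have 3233, 4710 and 3223 bases, against 6650, 6968 and 3927 bases of exons. The order of the α subunits and this ratio therefore depend on the length used. Gucy1b2, the β2 subunit, was close to the floor, with 80 counts over all libraries (0.0882 ± 0.0302 RPKM). The sum of soluble subunits was 29.5 to 48.6 times that of the 5 receptor cyclases of the Gucy2 symbols. Both the α and the β subunits of the soluble enzyme are counted in this sum. The natriuretic peptide receptors Npr1 and Npr2, which are guanylyl cyclases too, have other symbols and are left out. The ratio is therefore not one of soluble to all receptor cyclases.

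The Gucy2 receptor cyclases were all scarce. Gucy2e and Gucy2f, known from photoreceptors, were at 0.643 ± 0.0725 and 0.499 ± 0.0803 RPKM, and Gucy2c, the receptor of guanylin and uroguanylin that is also known from midbrain dopaminergic neurons, was at 0.509 ± 0.268 RPKM. Gucy2g, known from the olfactory system and testis, was at 0.163 ± 0.15 RPKM, and Gucy2d, the cyclase of a small class of olfactory neurons, at 0.0262 ± 0.0128 RPKM. The photoreceptor and pineal markers summed to 1.03 to 1.94 CPM over 6 genes, of which 3 had no count in at least 1 library.

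Of the PDEs, Pde1b, activated by calcium and calmodulin, had the highest level at 30.3 ± 1.43 RPKM. Pde2a, which cGMP stimulates and which hydrolyses both nucleotides, followed at 21.2 ± 2.67 RPKM and was below Pde1b in 12 of 12 animals, although their ranges overlapped. Pde6d was at 21.4 ± 0.956 RPKM, but it encodes a chaperone that binds lipid tails of membrane proteins, not a catalytic subunit. The Pde1 genes together made up 28.2% to 30.3% of the RPKM of the 21 PDE genes without Pde6d. Among the other dual-specificity genes, Pde1a was at 8.29 ± 1.35 RPKM and Pde10a, best known from striatal neurons, at 5.08 ± 0.330 RPKM. Pde3b, Pde1c, Pde11a and Pde3a were lower, from 1.86 down to 0.267 RPKM.

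The PDEs specific for cAMP were led by Pde4a at 15.0 ± 0.795 RPKM. Pde8b and Pde4b followed at 11.6 ± 0.417 and 10.9 ± 0.449 RPKM, with overlapping ranges, and Pde8a and Pde4d at 9.45 ± 1.12 and 6.86 ± 0.313 RPKM. The Pde4 family, the target of rolipram, held 54.1% to 56.1% of the RPKM of this class in each animal, and its scarcest gene, Pde4c, was at 0.304 ± 0.0762 RPKM. Pde7a and Pde7b were at 3.98 ± 0.189 and 2.08 ± 0.121 RPKM. Among the genes specific for cGMP, the high-affinity enzyme Pde9a was at 5.46 ± 0.472 RPKM and Pde5a, the target of sildenafil, at 0.745 ± 0.305 RPKM. The photoreceptor subunits Pde6g, Pde6b and Pde6a were at 0.0783, 0.0654 and 0.0342 RPKM. Of the remaining Pde symbols, Pde4dip, a scaffold of centrosome and Golgi, was at 12.7 ± 0.563 RPKM and Pde12, a mitochondrial enzyme that acts on RNA, at 2.87 ± 0.129 RPKM. With the longest transcript in place of all exons as the length, 35 of the 48 genes kept their rank in their family, and Prkacb, Prkar1b and Pde4b came before Prkaca, Prkar1a and Pde4a as the highest of their families. Shares and ratios of RPKM are given for all exons and move with that choice too. With the longest transcript, for example, Pde4d was at 19.6 RPKM instead of 6.86 and Pde8b at 16.1 instead of 11.6.

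**Figure D1:**
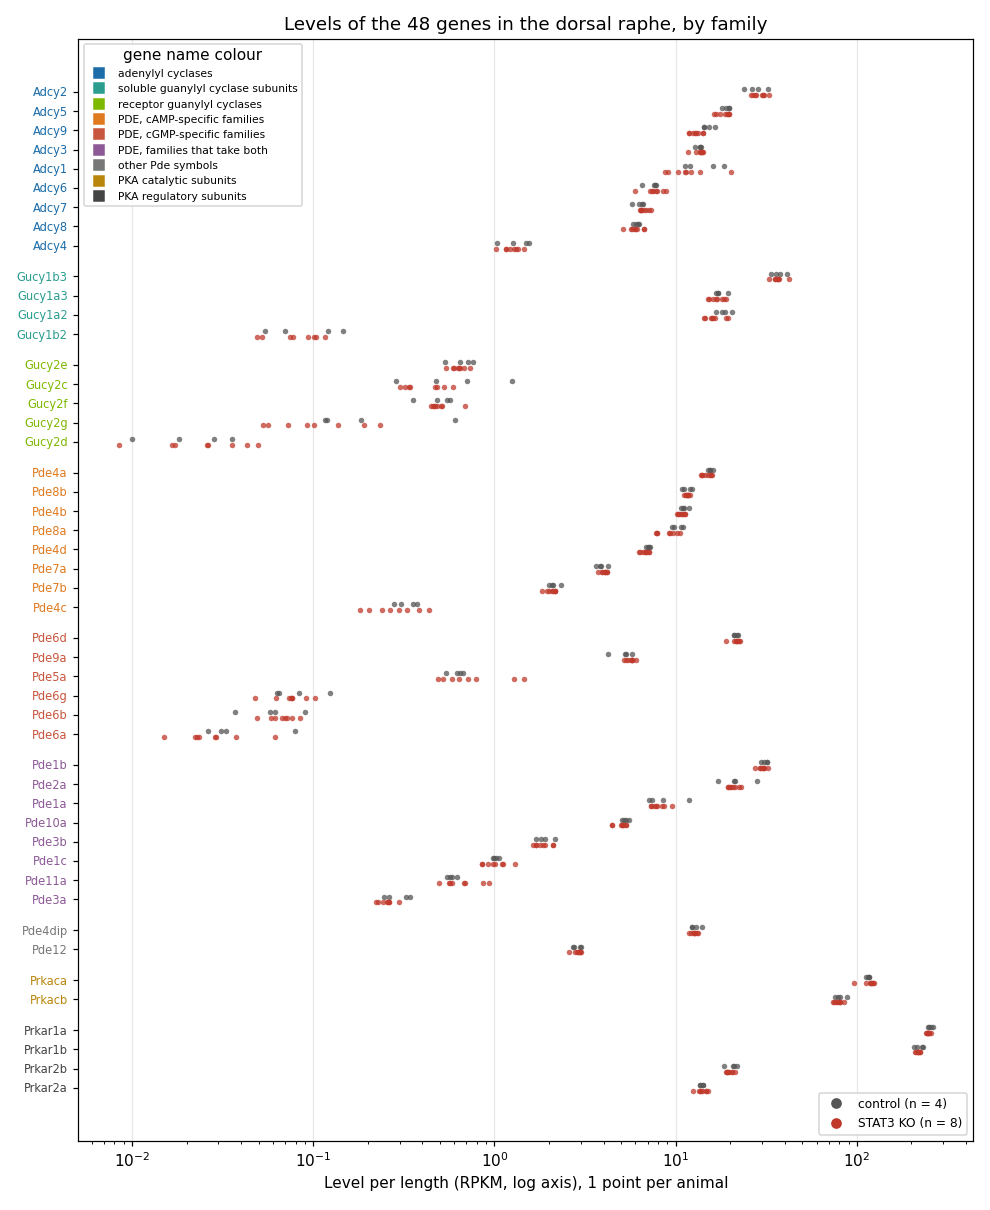
Level per length of each of the 48 genes (horizontal log axis, RPKM) with 1 point per animal, in grey for the 4 controls and red for the 8 STAT3 KO mice, ordered by family and level. The PKA regulatory subunits Prkar1a and Prkar1b lie farthest to the right, at 249 and 218 RPKM on average, Gucy2d and Pde6a farthest to the left, and the ranges of control and STAT3 KO points overlap for each gene except Adcy9.

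Genotypes were compared with edgeR's quasi-likelihood test over all 15453 genes that passed a filter on low counts, with Benjamini-Hochberg adjustment over all of them. Of the 48 genes, 44 passed the filter, and Pde6a, Pde6g, Gucy1b2 and Gucy2d did not. None of the 44 had an adjusted p below 0.05 (0 of 44), nor did any of the genes tested (0%), and the smallest adjusted p among the 44 was 0.615. An unadjusted p below 0.05 was reached by 4 of 44 (9.09%, against 7.66% of all genes tested), Adcy9, Gucy1a2, Gucy2c and Gucy2g, each with the lower mean in STAT3 KO mice. DESeq2, which tested all 48, gave 0 of 48 at an adjusted p below 0.05 (0.03% of all its genes, 6 of 20026), with a smallest adjusted p of 0.190. At an unadjusted p it gave 5 of 48 below 0.05 (10.4%, against 6.21% of all its genes). The log2 fold change was below 0 for 30 and above 0 for 14 of the 44, with a median of -0.039, while 50.6% of all genes tested were below 0 with a median of -0.0011. Differences in the whole tissue were small, and the 95% interval lay within -0.25 and 0.25 for 27 genes and within -0.5 and 0.5 for 37. With 1 animal left out, the log2 fold change turned or moved by over 1.5 times in 40 of the 44, the others being Adcy9, Pde4a, Pde4d and Pde8a.

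Adcy9 was the only one of the 44 genes whose genotypes did not overlap (1 of 44, against 0.447% of all genes tested). It lies on chromosome 16 from 4287529 to 4420498 of GRCm38, on the minus strand. Controls 3, 4, 11 and 13 had 85.9, 74.7, 79.6 and 74.6 CPM, and the STAT3 KO mice had 61.3 CPM at the lowest, 67.0 at the median and 73.3 at the highest. Every STAT3 KO animal was below every control, though the gap between the closest animals, at 74.6 and 73.3 CPM, was narrow. The mean was 78.7 ± 5.33 CPM (SD, n = 4) in controls, against 67.2 ± 4.57 CPM (n = 8) in STAT3 KO animals, 0.854 times the control level. The log2 fold change was -0.23 with an SE of 0.056 and a 95% interval of -0.35 to -0.11 (edgeR unadjusted p = 0.000937, adjusted p = 0.615). With every possible regrouping of the animals, the exact permutation test (two-sided) gave p = 0.00404, where the smallest possible is 0.00202. Adcy9 was also the only gene of the 44 with a permutation p below 0.05 (against 7.11% of all genes tested).

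The difference in Adcy9 was present in both sexes. Means were 80.3 CPM in control females and 67.3 CPM in STAT3 KO females, and 77.2 and 67.1 CPM in the males, with an interaction of genotype and sex of 0.053 ± 0.118 (log2, SE; adjusted p = 0.996 by edgeR). With any 1 animal left out, the log2 fold change stayed between -0.25 and -0.18, and without control 4, STAT3 KO 8 and STAT3 KO 16 together, the libraries that led in forebrain, choroid plexus or cerebellar markers, it was -0.23. Adcy9 made up 12.1% to 14.9% of the adenylyl cyclase RPKM in controls and 11.3% to 13.1% in STAT3 KO mice. Its summed family did not stand apart, with 111 ± 6.13 RPKM in controls and 107 ± 5.67 RPKM in STAT3 KO mice for the 9 cyclases together.

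Of the other cyclases for cAMP, Adcy1 had the lowest log2 fold change, -0.26 (95% interval -0.66 to 0.15, unadjusted p = 0.195). Controls 3, 4, 11 and 13 had 202, 231, 150 and 142 CPM, and STAT3 KO mice had 110, 142 and 253 CPM at the lowest, median and highest. The highest value of all 12 animals was thus that of a STAT3 KO mouse, number 16, and without it the log2 fold change was -0.40 with an unadjusted p of 0.0105. Without control 4, the highest of the controls, it was -0.11 with an unadjusted p of 0.579. Adcy7, which responds to βγ subunits, was higher by 0.098 (log2, -0.012 to 0.21), or by 0.060 without control 4, and was above every control in 4 of 8 STAT3 KO mice. Adcy2, Adcy3, Adcy4, Adcy5, Adcy6 and Adcy8 had log2 fold changes between -0.10 and 0.063, with unadjusted p from 0.367 to 0.990.

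**Figure D2:**
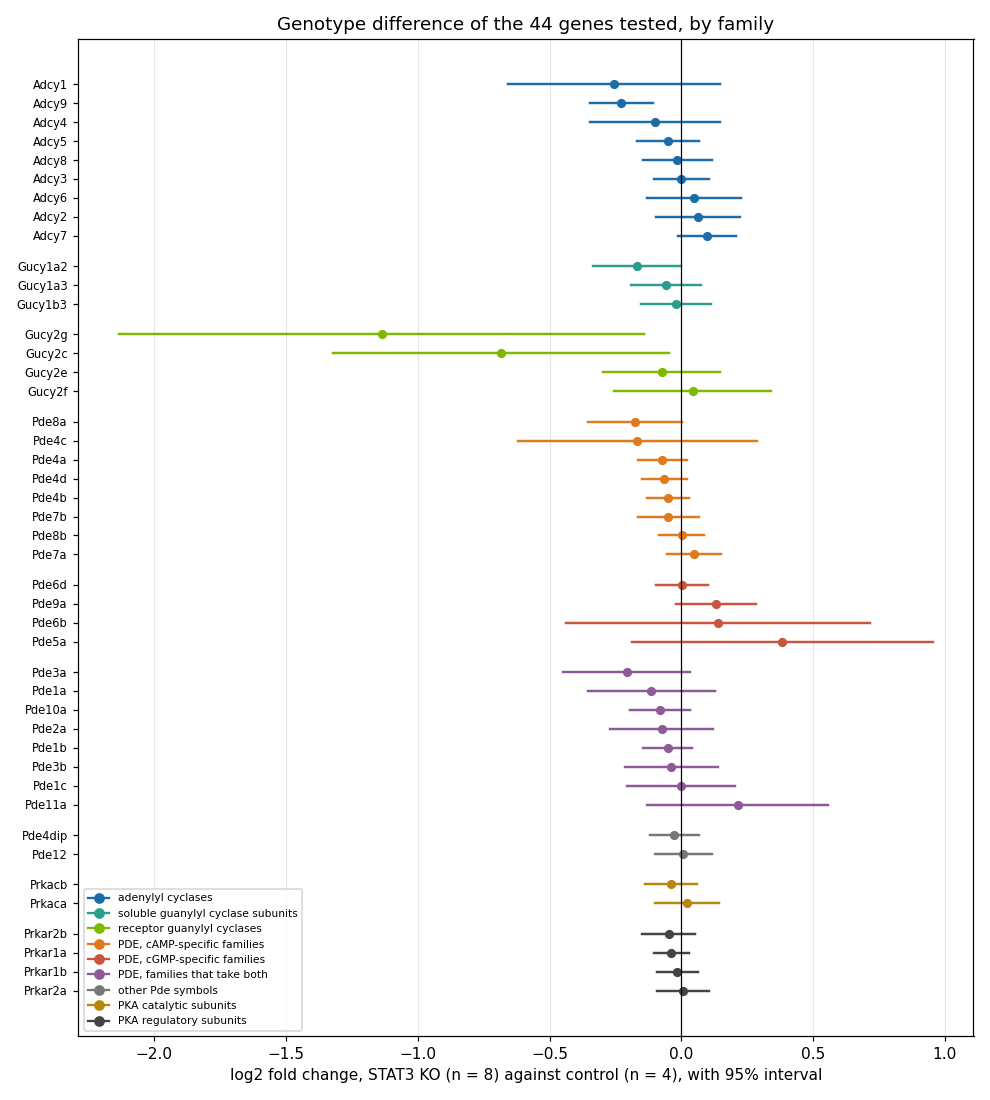
Log2 fold change of each of the 44 genes tested, STAT3 KO mice (n = 8) against controls (n = 4), with its 95% interval, coloured by family. The intervals of Adcy9, Gucy1a2, Gucy2c and Gucy2g lie below 0, those of the 40 others include 0, and the widest belong to the scarce genes Gucy2g, Gucy2c, Pde6b and Pde5a.

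Among the soluble guanylyl cyclase subunits, Gucy1a2 was at 124, 110, 120 and 136 CPM in controls 3, 4, 11 and 13, and at 95.6, 106 and 129 CPM (lowest, median, highest) in STAT3 KO mice. Of the 8 STAT3 KO animals, 6 were below every control and the other 2, numbers 7 and 8, lay among the controls. The log2 fold change was -0.17 with an SE of 0.079 (edgeR unadjusted p = 0.0485, adjusted p = 0.647) and the exact permutation p was 0.0990. Without control 13 the value was -0.11 and the unadjusted p 0.206. The other α subunit, Gucy1a3, had a log2 fold change of -0.057 (-0.19 to 0.076), which was -0.0012 without control 4, and the β subunit Gucy1b3 one of -0.019 (-0.15 to 0.11). Gucy1b2 had 0.149, 0.40, 0.193 and 0.330 CPM in the controls and 0.135 to 0.317 CPM in STAT3 KO mice, or 4 to 11 counts in each library.

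The 2 largest fold changes of all belonged to the scarce receptor guanylyl cyclases Gucy2g and Gucy2c. With 1 control left out they came to -0.25 and -0.20 at the nearest to 0. Gucy2g had 0.71, 2.36, 0.462 and 0.453 CPM in controls 3, 4, 11 and 13, and 0.206, 0.375 and 0.904 CPM (lowest, median, highest) in STAT3 KO mice. Control 4 alone was above every STAT3 KO animal. The log2 fold change was -1.14 with an SE of 0.468 (edgeR unadjusted p = 0.0279, adjusted p = 0.615, exact permutation p = 0.121). Leaving out control 4 brought it to -0.25 (unadjusted p = 0.563). Control 4 was also the library with the highest forebrain markers, and the part of this in the value of Gucy2g was not tested.

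Gucy2c had 4.97, 1.13, 1.89 and 2.80 CPM in controls 3, 4, 11 and 13, and 1.20, 1.61 and 2.33 CPM in STAT3 KO mice. Controls 3 and 13 were above all STAT3 KO mice, while control 4 was the lowest of the 12 animals. The log2 fold change was -0.69 with an SE of 0.299 (edgeR unadjusted p = 0.0366, adjusted p = 0.636, exact permutation p = 0.178). Leaving out control 3 brought it to -0.20 (unadjusted p = 0.459), and leaving out control 4 to -0.94 (unadjusted p = 0.0026). The dopaminergic markers, 5 genes all read in every animal, summed to 536 CPM in control 3, 389 CPM in control 13 and 247 to 363 CPM in the 10 others. Slc6a3, the dopamine transporter, was at 114 CPM in control 3, 47.2 CPM in control 13 and at most 38.2 CPM in the others. So the same 2 controls led in Gucy2c, in Slc6a3 and in the summed markers, and the part of the dopaminergic markers in the difference was not tested. Gucy2e and Gucy2f had log2 fold changes of -0.074 and 0.043. Gucy2d had 36 counts over all libraries, at most 0.202 CPM in any animal.

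**Figure D3:**
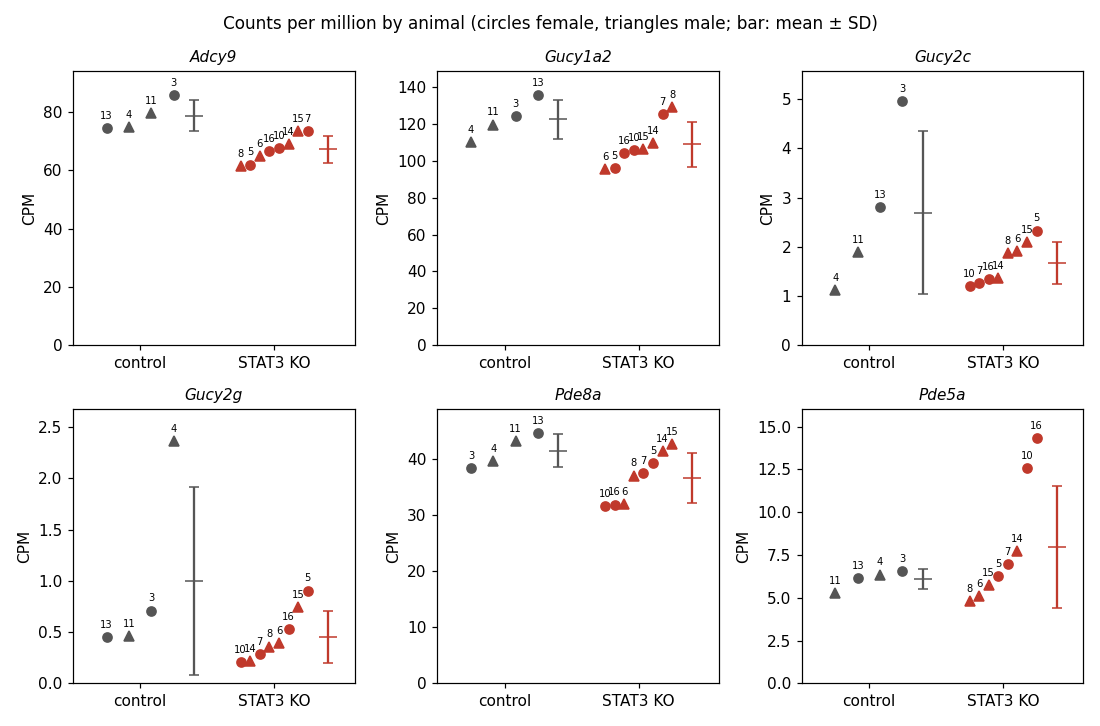
CPM by animal for 6 genes, with controls in grey and STAT3 KO mice in red, females as circles and males as triangles, animal numbers above the points, and mean ± SD at the side. For Adcy9 all 8 red points lie below the 4 grey ones, for Gucy2c and Gucy2g a single control (3 and 4) is far above the rest, and for Pde5a STAT3 KO 10 and 16 stand above all others.

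Among the PDEs none reached an unadjusted p below 0.05 by edgeR, and Pde8a did by DESeq2 (unadjusted p = 0.0449). Of the 8 genes specific for cAMP, 6 had a lower and 2 a higher mean in STAT3 KO mice, and their log2 fold changes lay between -0.18 and 0.048. Pde8a, a high-affinity cAMP enzyme, came closest, with 38.4, 39.6, 43.2 and 44.6 CPM in controls 3, 4, 11 and 13 and 31.5, 37.2 and 42.7 CPM in STAT3 KO mice (log2 fold change -0.18, SE 0.084, edgeR unadjusted p = 0.0508, adjusted p = 0.652). Of the 8 STAT3 KO animals, 5 were below every control. Pde4a had a log2 fold change of -0.072 (-0.17 to 0.021), Pde4b of -0.051 and Pde4d of -0.064. For Pde8b the control and STAT3 KO means were the same to 3 digits, 68.0 CPM, and the interval of -0.083 to 0.085 was among the narrowest.

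Of the 8 PDE genes that act on both nucleotides, 7 had a log2 fold change below 0 and 1 above 0, none with an unadjusted p below 0.05. The sign turned with 1 animal left out in 4 of the 7, namely Pde1a, Pde1c, Pde2a and Pde3b, whose highest values were then 0.076, 0.033, 0.071 and 0.036. Pde3a, which cGMP inhibits, had 3.14, 3.34, 4.35 and 4.12 CPM in controls 3, 4, 11 and 13 and 2.84, 3.29 and 3.78 CPM in the STAT3 KO group, which gave a log2 fold change of -0.21 (-0.45 to 0.033). Without control 11, the highest of the 12 animals, it was -0.12. Pde11a was the exception, at 2.84 to 3.24 CPM in controls and 2.56, 3.30 and 4.86 CPM in the STAT3 KO group, which gave a log2 fold change of 0.21 (-0.13 to 0.56), and of 0.13 without STAT3 KO 10. In 4 of 8 STAT3 KO mice Pde11a was above every control, and in 1 it was below. Pde10a, Pde1b and Pde3b had log2 fold changes of -0.081, -0.052 and -0.038. Pde1c, the other gene with the tighter STAT-type motif, had a log2 fold change of -0.0012 (-0.21 to 0.20). Over all 8 genes with TTCNNNGAA the log2 fold changes ran from -0.052 to 0.21.

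The 3 tested PDE genes specific for cGMP had log2 fold changes from 0.13 to 0.38, none with an unadjusted p below 0.05, and that of Pde6b was -0.039 without control 3. The chaperone gene Pde6d had a log2 fold change of 0.0018, and of -0.0071 without control 3. Pde9a had 14.9, 18.9, 20.3 and 18.5 CPM in controls 3, 4, 11 and 13 and 18.4, 20.2 and 21.5 CPM in the STAT3 KO group, which gave a log2 fold change of 0.13 (-0.022 to 0.28). Control 3 was below all the other animals, and without it the value was 0.050. Pde5a had 6.57, 6.36, 5.28 and 6.14 CPM in the controls and 4.82, 6.62 and 14.3 CPM in the STAT3 KO group, which gave a log2 fold change of 0.38 (-0.19 to 0.95, unadjusted p = 0.172). Only STAT3 KO 10 and 16, at 12.6 and 14.3 CPM, were well above the rest, which ended at 7.73 CPM. The log2 fold change was 0.26 without STAT3 KO 10 and 0.21 without STAT3 KO 16. Pde5a is known from cerebellar Purkinje cells. The same 2 libraries had the highest sums of the 9 cerebellar markers, none of which was at 0 in any animal. The sums ran from 85.6 to 177 CPM in controls and from 79.1 to 661 CPM in STAT3 KO mice. Of these 9, 4 were higher at an unadjusted p below 0.05 by edgeR (7.66% of all genes tested, in either direction). The part of these markers in the value of Pde5a was not tested. Pde6b had a log2 fold change of 0.14 (-0.44 to 0.71) at 109 counts over all libraries. The other 2 photoreceptor genes did not pass the filter. Pde6a had 0.374, 0.145, 0.154 and 0.124 CPM in controls 3, 4, 11 and 13 and 0.0707 to 0.288 CPM in STAT3 KO mice, and Pde6g had 0.145 to 0.288 CPM and 0.110 to 0.236 CPM.

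Prkar1a and Prkar1b had the narrowest intervals of the 44 genes. Prkar1a had 1073, 1108, 1134 and 1071 CPM in controls 3, 4, 11 and 13 and 1039, 1067 and 1114 CPM in the STAT3 KO group, which gave a log2 fold change of -0.039 with an interval of -0.10 to 0.027. Prkar1b, Prkar2a and Prkar2b had -0.016, 0.0047 and -0.047. Prkaca was at 287 ± 5.31 CPM in controls, against 291 ± 22.9 CPM in the STAT3 KO group, which gave a log2 fold change of 0.020 (-0.10 to 0.14), and Prkacb had -0.039 (-0.14 to 0.059), or 0.0081 without control 11. A difference of 0.25 on the log2 scale in either direction was outside the interval of each of the 6 PKA genes. These intervals are for the whole tissue and set no bound on a change within the cells that express SERT. The ratio of summed regulatory to catalytic RPKM was 2.59 ± 0.0575 in controls and 2.55 ± 0.0907 in STAT3 KO mice. Prkaca was above every control in 6 of 8 STAT3 KO mice and below every control in the other 2, numbers 8 and 16. Pde4dip and Pde12 had log2 fold changes of -0.026 and 0.0077. Of genes listed in the counts, Cenpo and Arf4 share 22.1% and 6.82% of the exon bases of Adcy3 and Pde12, on the opposite strand. With other annotated genes, Adcy6, Pde8b and Pde3a share 8.92%, 7.60% and 5.82% on the opposite strand, and Pde2a and Prkar1b share 64.3% and 8.95% on the same strand. The levels of these 7 genes are uncertain to that extent, and the sources used here do not give whether counting used strand.

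Spread between animals was unequal among the genes. The biological coefficient of variation, which edgeR estimates after counting noise, had a median of 7.48% over the 44 genes and 8.22% over all genes tested, and ran from 4.84% for Prkar1a to 49.6% for Gucy2g. It lay below the trend for genes of like abundance in 68.2% of the 44 genes and 78.8% of all genes tested. In 5 of the 44 (11.4%) and 5.07% of all genes tested it was over 1.5 times the trend. The 5 were Gucy2g, Gucy2c at 33.3%, Pde5a at 29.4%, Adcy1 at 21.8% and Pde1a at 13.2%. Adcy1, the calcium-stimulated cyclase known from cerebellar granule cells and forebrain, was highest in STAT3 KO 16 (253 CPM), control 4 (231) and control 3 (202), and at most 171 CPM elsewhere. STAT3 KO 16 had the highest cerebellar and control 4 the highest forebrain markers. Pde1a was at 71.6 CPM in control 4 and at 43.0 to 57.7 CPM in the others, and Pde2a at 173 CPM in control 4 and 105 to 141 CPM in the others. Both are known from forebrain neurons. The 10 forebrain excitatory markers summed to 448 CPM in control 4 and to 55.2, 58.7 and 78.2 CPM in controls 3, 11 and 13. In STAT3 KO mice the sums ran from 43.2 to 131 CPM, a range that holds those of controls 3, 11 and 13. Of the 9 tested, 4 were lower at an unadjusted p below 0.05 by edgeR (7.66% of all genes tested, in either direction). Fezf2 had no count in 2 animals. Without control 4, the log2 fold changes of Pde1a and Pde2a turned from -0.11 and -0.075 to 0.076 and 0.071. The part of the forebrain markers was not tested beyond leaving that library out.

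**Figure D4:**
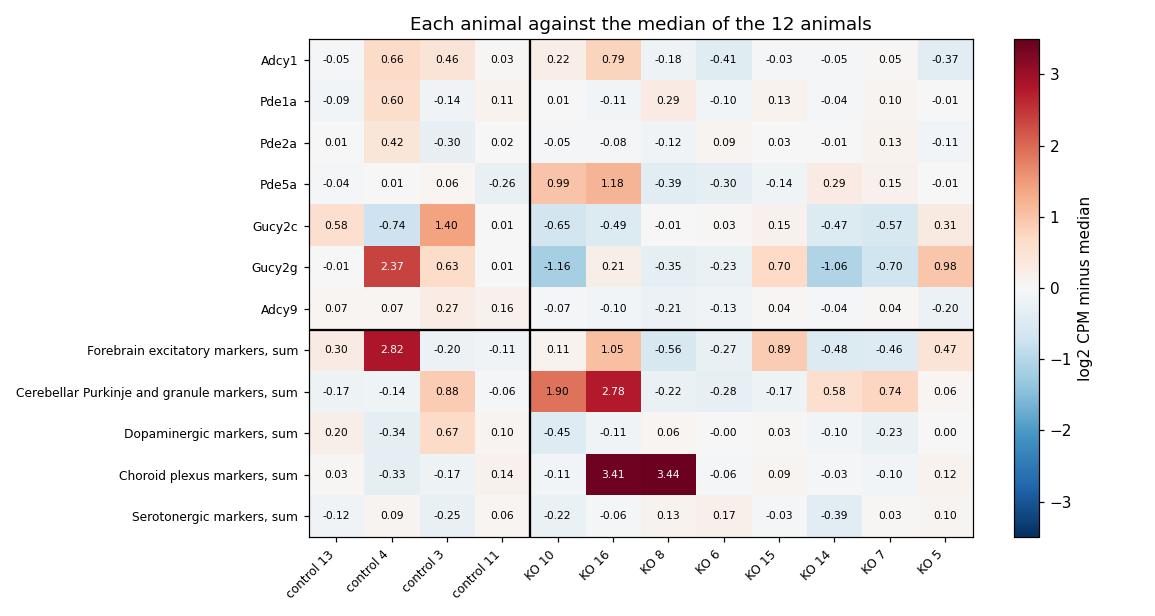
Log2 CPM of each animal minus the median of the 12 animals, for 7 genes (above the line) and for the summed markers of 5 cell types or areas (below it), controls left of the vertical line. Red cells mark animals above the median. Control 4 is high in forebrain markers, Gucy2g, Adcy1, Pde1a and Pde2a, STAT3 KO 10 and 16 in cerebellar markers and Pde5a, and control 3 in dopaminergic markers and Gucy2c, while Adcy9 runs from -0.21 to 0.27.

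Females and males were next compared. The interaction of genotype and sex had an unadjusted p below 0.05 in 4 of the 44 genes (5.49% of all genes tested) and an adjusted p below 0.05 in 0 of 44 (edgeR, smallest adjusted p 0.898). Gucy2c had 3.89 CPM in control females and 1.54 CPM in STAT3 KO females, but 1.51 and 1.81 CPM in males. The females include control 3. Pde1a, Pde2a and Adcy2 had the opposite pattern, higher in STAT3 KO than in control females and lower in males. Means were 43.6 and 47.2 CPM in females and 61.3 and 49.8 CPM in males for Pde1a, 117 and 127 against 152 and 129 CPM for Pde2a, and 106 and 123 against 128 and 121 CPM for Adcy2. With 2 controls of each sex, control 4, a male, had the highest and control 3, a female, the lowest value of the 4 controls for each of these 3 genes.

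Between the sexes as a whole, 3 of 44 genes had an unadjusted p below 0.05 (7.2% of all genes tested) and 0 of 44 an adjusted one, with a smallest adjusted p of 0.644 by edgeR. Pde5a was at 8.81 ± 3.65 CPM in females and 5.84 ± 1.07 CPM in males (n = 6 each), and the 2 high animals were females. Pde1a was at 46.0 ± 2.89 CPM in females and 53.7 ± 10.04 CPM in males. Gucy1b3, the obligate β subunit, was at 138 ± 6.82 CPM in females and 150 ± 11.3 CPM in males, a difference of 0.12 ± 0.051 (log2, SE).

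The pathway around these enzymes was described with 79 genes in 5 groups, of which 74 were tested. None had an adjusted p below 0.05 (0 of 74, edgeR), and 13 had an unadjusted p below 0.05 (17.6%, against 7.66% of all genes tested), 6 higher and 7 lower. Their median log2 fold change was 0.0085. Upstream, among G protein subunits and related genes (19 tested, 1 higher, 1 lower), Gnal, a stimulatory α subunit of striatal and olfactory neurons, was at 234 ± 14.2 CPM in controls, against 214 ± 9.95 CPM in STAT3 KO animals (-0.13, SE 0.046). Rgs9, a striatal and retinal regulator of G proteins, was at 36.5 ± 3.76 and 40.2 ± 1.96 CPM (0.14, SE 0.061). Without control 3 the differences of Gnal and Rgs9 were -0.084 and 0.073 (unadjusted p = 0.0977 and 0.176 by edgeR). Gnas, the main stimulatory α subunit, differed by 0.019 (log2, SE 0.045) at 2443 ± 58.9 and 2475 ± 148 CPM.

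Downstream of cAMP, the exchange factors and cyclic nucleotide-gated channels (14 tested) held 3 genes that were lower and 2 that were higher at an unadjusted p below 0.05. Hcn2, a channel of the pacemaker current, was at 414 ± 47.8 CPM in controls and at 355 ± 46.9 CPM in STAT3 KO mice (log2 fold change -0.22, SE 0.099), and Rapgef4, an exchange factor for Rap that cAMP activates, at 263 ± 10.4 and 243 ± 11.9 CPM (-0.11, SE 0.043). Cnga3 and Cngb1, subunits of channels known from sensory cells, were higher, with log2 fold changes of 0.56 and 0.32 at means of 0.702 and 4.30 CPM in controls.

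Of the inhibitors, anchors and substrates of PKA (18 tested), 2 were lower and 0 higher at an unadjusted p below 0.05, Arpp19 at 111 ± 13.6 and 100 ± 5.22 CPM and Arpp21 at 52.0 ± 17.9 and 42.4 ± 3.35 CPM. Control 4, with the highest forebrain markers, was the highest animal in both, at 131 and 78.5 CPM. Without it the log2 fold changes went from -0.15 and -0.29 to -0.056 and -0.021 (unadjusted p = 0.25 and 0.77 by edgeR). Ppp1r1b, the striatal phosphoprotein DARPP-32, differed by -0.023 (SE 0.082). Of the CREB factors and coactivators (10 tested), only Crtc3 had an unadjusted p below 0.05, with 19.5 ± 1.04 and 22.1 ± 1.63 CPM (0.18, SE 0.063), and Creb1 differed by 0.0021 (SE 0.064). On the cGMP side (13 tested), the kinase Prkg1 was at 13.2 ± 0.629 and 15.3 ± 2.29 CPM (0.22, SE 0.10), Nppa, which encodes atrial natriuretic peptide, at 0.192 ± 0.0337 and 0.391 ± 0.15 CPM, and Nos1ap, an adaptor of neuronal nitric oxide synthase, at 22.5 ± 2.29 and 19.3 ± 2.11 CPM (-0.22, SE 0.085). Nos1 itself varied widely, at 105 ± 39.6 and 139 ± 51.8 CPM (unadjusted p = 0.149). Of the pathway genes around these enzymes that were named with an unadjusted p below 0.05, only Crtc3 and Nppa stayed below it by edgeR with any 1 animal left out, and the p of Hcn2, for example, was 0.172 without control 3.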

How the data were processed

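Single-end RNA-seq of the DR of 12 mice (4 controls, 8 STAT3 KO, 1 library per animal) was analysed from counts per gene. The authors deposited raw counts for each library. Their methods give alignment to mm10, and their processing notes name STAR 2.5.0b, bcl2fastq and DESeq2 1.6.3. The counting tool, its annotation and its use of strand are not given in the sources used here. Lines that name no gene were left out, and 84.2% to 86.1% of the counts in each table lay on genes.

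Groups were taken from the labels and sexes were combined, as in the study's methods. Genes with enough counts for 1 genotype (edgeR's filterByExpr, minimum count 10, minimum total 15) numbered 15453. Normalisation by TMM and the quasi-likelihood test of edgeR 4.0.16 in R 4.3.3 gave log2 fold changes of STAT3 KO over control, with Benjamini-Hochberg adjustment over all genes tested. DESeq2 1.42.0, RLE factors, other filters, sex as covariate and omission of animals were the alternatives. The two-sided exact permutation test used mean log2 CPM (prior count 2). CPM were scaled to the total counts on genes times the TMM factor, and RPKM divides them by the union of exons in GENCODE vM21 (GRCm38), which may differ from the annotation the counts were made with. Intervals are at 95%, and those of counts cover counting error only. All 66 pairs of libraries differed by 2.29 to 5.40 times counting noise over genes with at least 50 counts on average. The fits were tested on simulated counts.

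Genes were named where the unadjusted p was below 0.05 or genotypes did not overlap, for the 5 largest changes in each direction, for the highest level in each family, for an animal over 1.5 log2 units above the others or far from its group, and where the filter was not passed. Others, such as Pde8a and Pde1a, were named after their values were seen. The genes, marker lists and pathway lists were chosen with earlier results of these data known. The values of 1 gene of the pathway lists are not reported here.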

Additional observations from a re-analysis of the deposited data

Results flagged for a closer look

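Single animals far from the rest of their group, by the gap to the nearest animal over the range of the group, were found in 5 of 88 groups of values, where 4.4 are expected by chance at 1 in 20. Adcy6 was at 44.04 CPM in control 11 and at 51.3 to 52.7 CPM in the other controls (gap 0.853 of the range). Gucy1a3 was at 136 CPM in control 4 and at 117 to 119 CPM in the other controls (0.844). In STAT3 KO 8, Gucy2f was the highest of its group at 5.58 CPM (0.674) and Prkaca the lowest at 239 CPM (0.597). Pde6d was the lowest of its group in STAT3 KO 7, at 41.1 CPM (0.566). Control 4 and STAT3 KO 8 also led in forebrain and choroid plexus markers, and the part of these in the values was not tested.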

How the results depend on the processing

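No paired analysis was run. The mice were littermates, but the sample labels do not give the litters, so litter could not be taken into account. The count of genes at an adjusted p below 0.05 was 0 in every alternative run. The count at an unadjusted p below 0.05, 4 by edgeR, was 5 with DESeq2 (6.21% of all genes tested there), 3 with RLE factors (7.61%), 2 with at least 10 counts in every library (7.44%, where Gucy2g could not be fitted), 2 with sex as covariate (7.69%) and 4 without control 4, STAT3 KO 8 and STAT3 KO 16 (13.1%). With 1 animal left out it ran from 2 (without STAT3 KO 10, 5.83% of all genes) to 5 (without control 3, 5% of all genes). Of 546 fold changes of 29 named genes under alternatives, 31 turned in direction, 25 of them with 1 animal left out, and these belonged to 12 genes. Over all 44 genes tested, 19 turned in direction with at least 1 animal left out, Adcy3, Adcy8, Pde1a, Pde1c, Prkacb, Prkar1b and Prkar2a besides those below. The cause was not tested. With library size alone Gucy1b3 was at 0.0036. Without control 4, STAT3 KO 8 and STAT3 KO 16 the log2 fold changes were 0.0093 for Gucy1b3, -0.011 for Pde12, 0.099 for Pde2a, 0.0093 for Pde4dip and -0.0072 for Pde6d. With 1 animal left out, the range was -0.0012 to 0.15 for Adcy2, -0.0054 to 0.093 for Adcy6, -0.062 to 0.038 for Gucy1b3, -0.16 to 0.0031 for Gucy2e, -0.082 to 0.13 for Gucy2f, -0.012 to 0.036 for Pde12, -0.17 to 0.071 for Pde2a, -0.086 to 0.036 for Pde3b, -0.044 to 0.018 for Pde4dip, -0.039 to 0.37 for Pde6b, -0.0078 to 0.026 for Pde6d and -0.028 to 0.031 for Pde8b. Depth limited the genes near the floor of 3 counts, such as Gucy2d, Gucy1b2, Pde6a and Pde6g.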
